A study of Homo sapiens with 6 samples.

Results

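The genes described here encode the factors that start and drive protein synthesis on cytosolic ribosomes, the eukaryotic initiation factors (gene symbols beginning EIF and a digit) and the elongation factors (EEF1 and EEF2), with the enzymes named after the elongation factors. They were chosen by symbol alone, from probe sets that name 1 gene, and pseudogenes, antisense genes, the eIF2 kinases (EIF2AK) and the eIF4E binding proteins (EIF4EBP) were left out. This gave 52 of the 19775 genes of the table, read by 131 of its 54613 probe sets, and each gene is given by the probe set with its highest mean over all 6 arrays. RNA was taken from OCI-AML3, a human acute myeloid leukaemia cell line that carries a nucleophosmin (NPM1) mutation, after 24 h with 1 μM Vorinostat (SAHA), an inhibitor of histone deacetylases, or with DMSO, its solvent. Each group has 3 samples with the replicate numbers 1, 2 and 3, each hybridised to an Affymetrix HG-U133 Plus 2.0 array. Both groups are the same established line, and the labels name no other agent. The comparison asks which of these genes had a different RNA level after Vorinostat, in all arrays and within each replicate number.

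Initiation begins when eIF2 brings the initiator tRNA to the small ribosomal subunit, where eIF1 and eIF1A help it to scan for the start codon. The large eIF3 complex holds the small subunit and joins it to the cap-binding complex eIF4F, made of the cap binder eIF4E, the scaffold eIF4G and the helicase eIF4A. eIF5 and eIF5B then let the large subunit join. In elongation eEF1A delivers each aminoacyl-tRNA, its exchange factor eEF1B recharges it with GTP, eEF2 moves the ribosome along the mRNA, and eIF5A, the one protein that carries hypusine, helps at stalling residues. Many leukaemia cells rely on high rates of protein synthesis, and the activity of several of these factors is under the control of the kinase mTOR.

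The arrays did not read these genes equally. The median deposited log2 value of the 52 genes was 5.89, 2.48 and 3.14 on the Vorinostat arrays 1, 2 and 3, against 6.23, 3.67 and 2.65 on the DMSO arrays 1, 2 and 3. The number 1 arrays were the highest of both groups for 44 of the 52 genes (84.6%), a share of 32.1% over all genes and of 85.1% over the 3379 genes with a mean above a log2 value of 3. Above that level lay 46, 17 and 27 of the 52 genes on the Vorinostat arrays, against 42, 32 and 19 on the DMSO arrays, and over all genes 5185, 1840 and 2283, against 5469, 2590 and 1878. Of the 52 genes, 14 lay above it on all 6 arrays, 32 on some and 6 on none, and 7 were above it on the number 1 arrays only. The whole RNA of a culture was read, so less of an RNA per cell and fewer cells that hold it cannot be told apart. Of 7 markers of myeloid blasts with a probe set, only CEBPA, a myeloid transcription factor, had a mean above 3 (8.13, 3.75 and 5.13 after Vorinostat, against 7.55, 5.59 and 3.36 with DMSO), while MPO, SPI1, KIT, CSF3R and ANPEP stayed under 3 on every array. Of 9 markers of other cell types, 1 had a mean above 3, PECAM1, with 5.00, 2.56 and 2.90 after Vorinostat, against 3.05, 2.39 and 2.34 with DMSO.

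No translation factor gene passed the test. In the limma fit of Vorinostat against DMSO the adjusted p was 1 for every probe set of the table, so 0 of 54613 were called (0.0%). At an unadjusted p under 0.05 the table had 272 higher and 273 lower probe sets, and none of the 52 genes passed it in either direction, where 0.602% of all genes were higher and 0.389% lower. The difference (mean of the Vorinostat arrays minus mean of the DMSO arrays, on the log2 scale) was negative for 38 of the 52 genes (73.1%), against 53.1% of all genes and 68.8% of those with a mean above 3. After quantile normalisation, which gives all arrays 1 distribution, it was negative for 27 of the 52, so the balance of signs depends on the scaling. The median was -0.14 (-0.04 after quantile normalisation), against -0.02 over all genes and -0.23 over those with a mean above 3. The standard errors from limma (SE, 3 arrays a group) ran from 0.08 to 2.36 with a median of 1.33, while the differences themselves ran from -1.43 to 0.51.

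Within the replicate numbers the direction changed from number to number. Vorinostat minus DMSO had a median of -0.06 in number 1, -0.97 in number 2 and 0.17 in number 3, and it was negative for 28, 47 and 15 of the 52 genes. Over the genes with a mean above 3 the medians were -0.15, -0.73 and 0.20, and 58.7%, 85.2% and 34.3% were negative (51.0%, 55.8% and 45.3% of all genes). Lower in number 2 and higher in number 3 were 33 of the 52 (63.5%), against 30.2% of all genes and 54.7% of those with a mean above 3. After quantile normalisation the medians of the 52 genes were 0.05, -0.57 and 0.16, 40 were negative in number 2 and 24 were lower in number 2 and higher in number 3, while the number 2 median of the genes with a mean above 3 was -0.37. Lower in each of the 3 numbers were 6 genes (EIF1AX, EIF2A, EIF3C, EIF3E, EIF4E2 and EIF4G1), where 13.7% of all genes were, and higher in each were 3 (EIF2B2, EIF2S1 and EEF2KMT), where 13.0% were. The Vorinostat arrays lay wholly below the DMSO arrays for 1 gene, EIF3C, and wholly above for 0, where 1.95% and 2.3% of all genes did so.

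**Figure D1:**
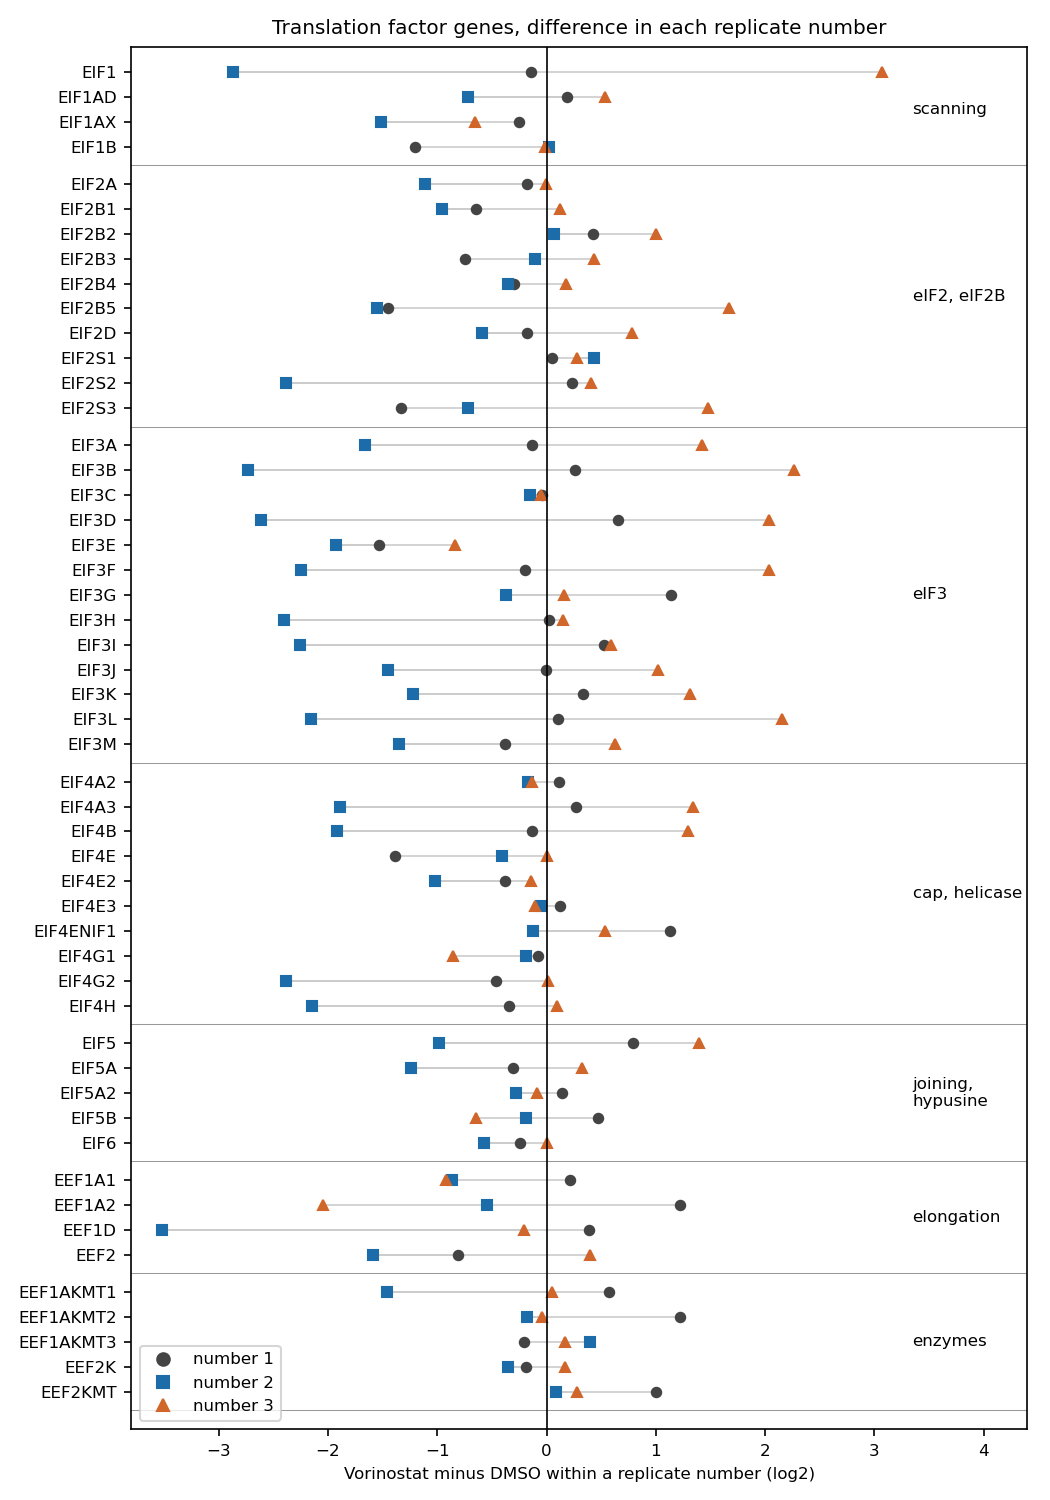
Vorinostat minus DMSO within replicate numbers 1, 2 and 3 (horizontal axis, log2) for 51 of the 52 genes, ordered by role, with a grey line over each gene's range; EIF1AY, which is on the Y chromosome, is counted in the text and not drawn. The squares of number 2 lie mostly left of 0 and the triangles of number 3 mostly right of it, while EIF3E has all its points left of 0.

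The replicate numbers were taken to pair the arrays, but the check given with the methods does not tell numbers 2 and 3 apart, so a difference within either number need not be one between matched samples. With the number as a block EIF3E and EIF1AX passed an unadjusted p under 0.05 on the lower side, and none of the 52 genes did on the higher side. Of all genes 3.12% were lower and 2.25% higher in that fit, and of those with a mean above 3, as both genes have, 9.35% and 2.46%, and the limma adjusted p of both genes was 0.887.

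Many mRNAs of the translation apparatus begin with a C and an unbroken run of pyrimidines, the 5′ terminal oligopyrimidine tract through which mTOR signalling controls their translation. In RefSeq promoters (GRCh38.p14) 41 of the 52 genes had a window, and in 11 of them (26.8%) an annotated start was a C followed by at least 4 further C or T, against 5.14% of 27305 genes. These were EEF1A1, EEF2, EIF2A, EIF2D, EIF2S3, EIF3D, EIF3F, EIF3K, EIF3M, EIF4A2 and EIF4B. Shown for 6 of them whose values are discussed are 30 bases of the coding strand, 15 before the start and 15 from it, with the run of pyrimidines from the start in capitals.
EEF1A1 (chr6:73521018-73521047, minus strand): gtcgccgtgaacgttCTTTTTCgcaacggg
EEF2 (chr19:3985449-3985478, minus strand): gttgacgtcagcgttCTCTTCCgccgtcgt
EIF3D (chr22:36529152-36529181, minus strand): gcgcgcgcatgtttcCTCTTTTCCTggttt
EIF3F (chr11:7987322-7987351, plus strand): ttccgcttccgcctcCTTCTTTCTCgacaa
EIF3K (chr19:38619173-38619202, plus strand): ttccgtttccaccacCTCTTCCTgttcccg
EIF3M (chr11:32583816-32583845, plus strand): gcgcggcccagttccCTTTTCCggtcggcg
The match is to the annotated start and does not show where transcription began in these cells. The 11 genes with such a start had a median difference of -0.19, with -0.18, -1.23 and 0.78 in numbers 1, 2 and 3, and 8 were lower in number 2 and higher in number 3. Of the 30 genes with a window and no such start, 29 have a level given here. These 29 had a median of -0.14, with -0.08, -0.57 and 0.17, and 18 of the 29 did so. Of all genes 30.2% did so, and of those with a mean above 3, 54.7%. A mean above 3 was found in 10 of the 11 genes and in 19 of the 29 others whose level is given. Over all 19775 genes it was found in 3379.

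The E-box CACGTG, the site that the MYC and MAX proteins bind, was also searched in the windows of 250 bases before and 50 from the start, where its sequence reads the same on both strands. It lay in the windows of 11 of the 41 genes (26.8%), against 8.77% of all genes, and EIF3F, EIF3K and EIF4B had it together with the pyrimidine tract. EIF4E and EIF4G1, the cap binder and its scaffold, each had 2, and the one nearest the start is shown here in capitals, beginning 72 bases before the start in EIF4E and 67 before it in EIF4G1.
EIF4E (chr4:98929188-98929217, minus strand): ggacatatccgtCACGTGgccagaagctgg
EIF4G1 (chr3:184314527-184314556, plus strand): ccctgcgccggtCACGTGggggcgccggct
A match describes these letters and was not measured as binding.

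Among the genes of start codon scanning, EIF1 changed sign between numbers. This gene's values were 10.17, 5.06 and 6.89 after Vorinostat, against 10.31, 7.93 and 3.82 with DMSO, a difference of 0.02 with a standard error of 2.08. The gap between the numbers was large, with -0.14 in number 1, -2.87 in number 2 and 3.07 in number 3, and the groups overlapped. EIF1 has 3 probe sets with a mean above 3, and they did not share this gap. Another of them differed by 1.495, 0.09 and 0.28, and the last by 1.22, -0.79 and -0.03. EIF1AX, which encodes eIF1A, the partner of eIF1 on the small subunit, was lower in each number, with 7.01, 2.27 and 2.06 after Vorinostat, against 7.26, 3.79 and 2.72 with DMSO. The difference was -0.81 (SE 1.82), and its parts were -0.25, -1.52 and -0.66. All of this gene's signal above 4 came from the number 1 arrays, and without both of these arrays the difference was -1.09 (limma, adjusted p = 0.949). EIF1B, the close paralog of EIF1, had 4.19, 1.48 and 1.71 after Vorinostat, against 5.40, 1.46 and 1.73 with DMSO, and was apart only in number 1, at -1.20. EIF1AD, a protein with an eIF1A-like domain, differed by 0.0026 overall.

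The eIF2 complex, which carries the initiator tRNA, showed no common direction. EIF2S1 encodes its alpha subunit, the one that stress kinases phosphorylate to slow translation, and had 6.36, 3.20 and 2.97 after Vorinostat, against 6.31, 2.77 and 2.68 with DMSO. It was higher in each number, by 0.05, 0.44 and 0.28. Its difference of 0.26 had a standard error of 1.39 without the replicate block and 0.12 with it (limma, adjusted p = 0.887). A second probe set of EIF2S1 with a mean above 3 differed by 1.94, -0.29 and 0.14, so it was not higher in each. EIF2S2, the beta subunit, had 9.03, 4.05 and 6.07, against 8.80, 6.44 and 5.66, and was lower in number 2 alone, at -2.38. EIF2S3, the gamma subunit that binds GTP and the initiator tRNA, differed by -1.33, -0.71 and 1.48 in the 3 numbers. A second probe set of EIF2S3 with a mean above 3 was lower in each, at -0.07, -0.16 and -0.43. The 3 subunits of this complex thus had different signs in number 1, negative for EIF2S3 and positive for EIF2S1 and EIF2S2.

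eIF2B reloads eIF2 with GTP, and its 5 subunit genes gave mixed values as well. EIF2B2, the beta subunit, had 4.44, 2.53 and 3.15 after Vorinostat, against 4.01, 2.47 and 2.14 with DMSO. It was higher in each number, by 0.43, 0.07 and 1.01, with an overall difference of 0.50 (SE 0.70), and after quantile normalisation it was 0.70 higher (limma, adjusted p = 1). The other 4 (EIF2B1, EIF2B3, EIF2B4 and EIF2B5) were lower in numbers 1 and 2 and higher in number 3, and the range over all 5 in number 3 was 0.13 to 1.67. The widest was EIF2B5, the catalytic epsilon subunit, with -1.45, -1.55 and 1.67. EIF2A and EIF2D, which can bring tRNA to the ribosome outside the usual route, differed by -0.43 (SE 1.59) and 0.0045 (SE 0.77), and EIF2A was lower in each number, in number 3 at -0.0071 only. Over the 10 genes of eIF2, eIF2B and these alternatives the median was -0.17, and 0.04 after quantile normalisation.

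The eIF3 complex had the widest gap between the numbers of the 7 role groups. All 13 of its measured genes were lower after Vorinostat in number 2, with a median of -1.92, and 11 of the 13 were higher in number 3, with a median of 1.02, while in number 1 the median was 0.02. Of the genes with a mean above 3, 85.2% were lower in number 2 and 65.6% higher in number 3. Leaving aside EIF3C, whose only probe set stayed under 2, the differences ran from -2.73 to -0.37 in number 2 and from -0.84 to 2.27 in number 3. The eIF3 medians on the arrays were 8.19, 2.91 and 4.39 after Vorinostat, against 7.77, 4.82 and 2.76 with DMSO. Between the Vorinostat arrays 2 and 3, which had the same treatment, 12 of the 13 genes were higher on array 3, with a median of 1.35 for number 3 minus number 2. Between the DMSO arrays 2 and 3 all 13 were lower on array 3, with a median of -1.61. Of the genes with a mean above 3, 79.0% and 77.8% did the same. The overall median of the 13 genes was -0.12 (0.11 after quantile normalisation), smaller than either of these gaps between arrays of one group, and it ran from -1.60 without Vorinostat array 1 to 0.97 without DMSO array 1. After quantile normalisation 12 of the 13 were still lower in number 2, with a median of -1.17, and the median in number 3 was 1.11, against -0.37 and 0.06 over the genes with a mean above 3.

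Single subunits showed the pattern plainly. EIF3B, a subunit that binds RNA, had 8.03, 3.33 and 5.48 after Vorinostat, against 7.77, 6.06 and 3.21 with DMSO, with a difference of -0.07 (SE 1.63). EIF3F, a subunit with an MPN domain, had 9.31, 3.74 and 5.09, against 9.52, 5.99 and 3.06, with a difference of -0.14 (SE 2.16). EIF3D, which can itself bind the cap of some mRNAs, had 8.19, 2.27 and 4.39, against 7.54, 4.88 and 2.35, with a difference of 0.02 (SE 1.97). In each of these genes array 2 was low and array 3 intermediate after Vorinostat, the DMSO arrays had the reverse order, and the 2 differences cancelled in the mean. EIF3K and EIF3L, the pair at the edge of the complex, differed by -1.23 and 1.31, and by -2.15 and 2.16, in numbers 2 and 3. EIF3A, the largest scaffold subunit, differed by -1.66 and 1.42, EIF3I by -2.25 and 0.59, EIF3J by -1.45 and 1.02, and EIF3G by -0.37 and 0.16. For EIF3A this depended on the probe set. Another, with a mean of 4.38 against 4.39 for the one used, differed by -0.02 and 0.66 in numbers 2 and 3.

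EIF3E stood out from this pattern. It encodes a subunit with a PCI domain, and the gene was first known in mice as a site where a mammary tumour virus inserts. Its values were 8.45, 4.72 and 5.54 after Vorinostat, against 9.98, 6.65 and 6.37 with DMSO. Within every number the Vorinostat array was the lower one, at -1.53 in number 1, -1.92 in number 2 and -0.84 in number 3, although the 2 groups overlapped because both number 1 arrays were high. The difference was -1.43, with a standard error of 1.40 without the block (limma, adjusted p = 1) and 0.24 with it (limma, adjusted p = 0.887). Without both number 1 arrays it was -1.38 (limma, adjusted p = 0.949). After quantile normalisation it was -1.04 (limma, adjusted p = 1), with -1.58, -0.56 and -0.96 in the numbers, and in both of these settings it was past an unadjusted p under 0.05. It stayed negative with any 1 array left out, but ran from -2.54 without Vorinostat array 1 to -0.27 without DMSO array 1, with -0.67 without Vorinostat array 2, and none of these passed an unadjusted p under 0.05. It was the lowest difference of the 51 genes whose level is given.

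EIF3H, a subunit with an MPN domain, and EIF3M, one with a PCI domain, had other signs in number 3. EIF3H had 9.76, 4.60 and 7.07 after Vorinostat, against 9.74, 6.995 and 6.92 with DMSO, and was apart only in number 2, at -2.40. EIF3M had 8.33, 3.13 and 4.83, against 8.71, 4.48 and 4.20, a difference of -0.37 (SE 1.82) with -0.38, -1.35 and 0.63 in the numbers. A second probe set of EIF3M with a mean above 3 differed by -0.80 and was lower in each number. EIF3M is on the study's own list of decreasing genes, drawn from these arrays, so its direction here is not independent evidence. The study asked for over 2-fold and an unadjusted p under 0.05, and in the limma fit neither of these EIF3M probe sets met that. EIF3C had 1.25, 1.20 and 1.26, against 1.29, 1.35 and 1.31, so its groups did not overlap but lay only -0.08 apart, with all values under 2. Its near copy EIF3CL was not analysed here.

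**Figure D2:**
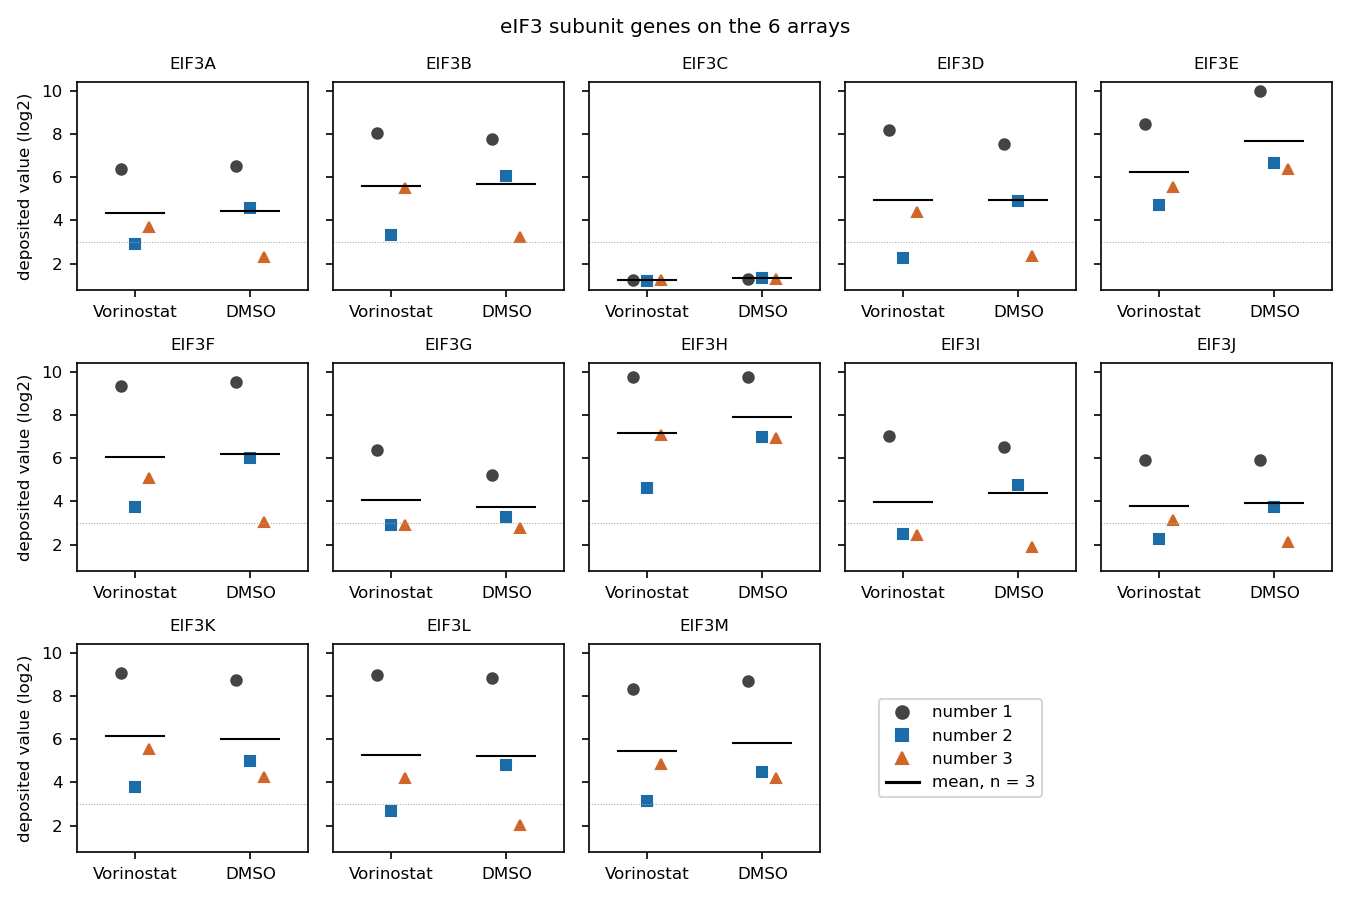
Deposited log2 values (vertical axis) of the 13 eIF3 subunit genes on the 3 Vorinostat arrays (left in each panel) and the 3 DMSO arrays (right), with the marker giving the replicate number, the bar the group mean (n = 3) and the dotted line a log2 value of 3. In EIF3E each Vorinostat marker lies below the DMSO marker of the same number, while in EIF3B, EIF3D, EIF3F and EIF3L the square and the triangle swap order between the groups.

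Of the 10 genes of cap binding and helicase activity, 5 of which had a mean above 3, 9 had a negative difference, with a median of -0.31. After quantile normalisation 7 of the 10 did, with a median of -0.26. Of all genes 53.1% had a negative difference, and 68.8% of those with a mean above 3. EIF4A2 and EIF4E3, both near the floor, were at -0.06 and -0.01. Lower in each number were 2 of the 10, where 13.7% of all genes were and 19.5% of those with a mean above 3. EIF4E, the cap binder that limits initiation in many cells, had 5.00, 2.48 and 2.67 after Vorinostat, against 6.39, 2.89 and 2.66 with DMSO. Its pairs differed by -1.39 in number 1, -0.41 in number 2 and 0.01 in number 3, for a difference of -0.60 (SE 1.25). EIF4E2, which binds the cap but represses or redirects translation, was lower in each number, with 3.89, 1.22 and 2.02, against 4.27, 2.24 and 2.16. EIF4E3 had no value above 2.01 on any array. EIF4ENIF1 encodes 4E-T, the carrier that takes eIF4E to the nucleus, and it had the lowest unadjusted p of the genes whose level is given (limma, adjusted p = 1). It was higher by 0.51 (SE 0.26), with 3.29, 2.32 and 2.77 after Vorinostat, against 2.16, 2.44 and 2.24 with DMSO, and the groups overlapped at the second Vorinostat array.

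Both measured EIF4G genes had a negative difference, and EIF4G3 was not analysed here. EIF4G1 had 3.96, 2.08 and 2.17 after Vorinostat, against 4.03, 2.27 and 3.03 with DMSO, and its pairs differed by -0.08, -0.19 and -0.86. EIF4G2, a relative that cannot bind eIF4E, had 9.12, 4.58 and 6.31, against 9.58, 6.97 and 6.29. Its difference of -0.94 (SE 1.43) came from number 2, at -2.39, with -0.46 in number 1 and 0.02 in number 3. EIF4A1, the main helicase, was not analysed here, and EIF4A2, its paralog, was read only by a probe set with values from 1.11 to 1.52. EIF4A3, the relative in the exon junction complex, differed by 0.27, -1.89 and 1.34, and the helicase partners EIF4B and EIF4H by -0.13, -1.92 and 1.30 and by -0.35, -2.15 and 0.10. These last 3 genes were lower in number 2 and higher in number 3, EIF4H by only 0.10 in number 3. Of the genes with a mean above 3, 54.7% had these signs. A second probe set of EIF4B with a mean above 3 was not higher in number 3, at 0.84, -0.48 and -0.24.

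Among the genes of subunit joining, EIF5, which makes eIF2 hydrolyse its GTP once the start codon is found, had 7.20, 2.62 and 4.44 after Vorinostat, against 6.41, 3.60 and 3.05 with DMSO. Its difference was 0.40 (SE 1.46), but its probe sets with a mean above 3 disagreed, and 2 of the 3 were lower in each number, at -0.61 and -0.60 overall. EIF5A, the hypusine protein, had 4.67, 2.83 and 4.05, against 4.98, 4.08 and 3.72, a difference of -0.41 (SE 0.57). Its paralog EIF5A2 lay between 1.63 and 1.91 on all arrays. EIF5B, the GTPase of subunit joining, had 7.98, 5.29 and 4.99, against 7.51, 5.47 and 5.64, with differences of 0.47, -0.19 and -0.65. By this probe set EIF5B ran the other way from eIF3 in number 3, but another with a mean above 3 differed by -0.03, -0.27 and 0.50. EIF6, which keeps free large subunits apart, differed by -0.25, -0.57 and 0.0047.

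All 4 measured elongation factor genes had a negative difference, with a median of -0.59, the lowest of the 7 role groups, though EEF1A1 turned positive after quantile normalisation, where the median was -0.50. A negative difference was found in 53.1% of all genes and in 68.8% of those with a mean above 3. EEF1A1, the main carrier of aminoacyl-tRNA and the gene with the first sequence above, had 12.76, 10.41 and 10.19 after Vorinostat, against 12.55, 11.27 and 11.11 with DMSO. Its pairs differed by 0.22, -0.86 and -0.92, for a difference of -0.52 (SE 0.81). Without both number 1 arrays it was -0.89, past an unadjusted p under 0.05 (limma, adjusted p = 0.949). Its other 3 probe sets with a mean above 3 were lower in each number, with overall differences from -1.90 to -1.15. All 4 carry the suffix that marks probe sets able to match other sequences, and EEF1A1 has many processed copies in the genome. After quantile normalisation the probe set used for EEF1A1 differed by 0.15, with 0.93, 0.0 and -0.47 in the numbers. The direction of that probe set thus depends on the scaling, and the other 3 are not given after it.

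EEF2, the translocase, had 9.78, 6.09 and 6.95 after Vorinostat, against 10.60, 7.68 and 6.55 with DMSO. Its pairs differed by -0.81, -1.59 and 0.40, and the groups overlapped. A second probe set of EEF2 with a mean above 3 differed by -0.02, -2.51 and 2.32, and by only -0.07 between the group means. EEF1D, a subunit of the exchange factor, had the largest step in a single number, with 7.65, 2.22 and 5.39, against 7.26, 5.74 and 5.59. Its second pair differed by -3.52 while the other pairs differed by 0.38 and -0.21, and without Vorinostat array 2 the difference was 0.32 in place of -1.12. A second probe set of EEF1D with a mean above 3 did not show this step, with -0.85, -0.24 and 0.21 in the numbers. EEF1A2, the paralog of EEF1A1 in neurons and muscle, had 3.06, 1.33 and 2.19, against 1.83, 1.87 and 4.24, so a single array in each group, Vorinostat 1 and DMSO 3, stood above the others. EEF1B2 and EEF1G, the other exchange factor subunits, were not analysed here.

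**Figure D3:**
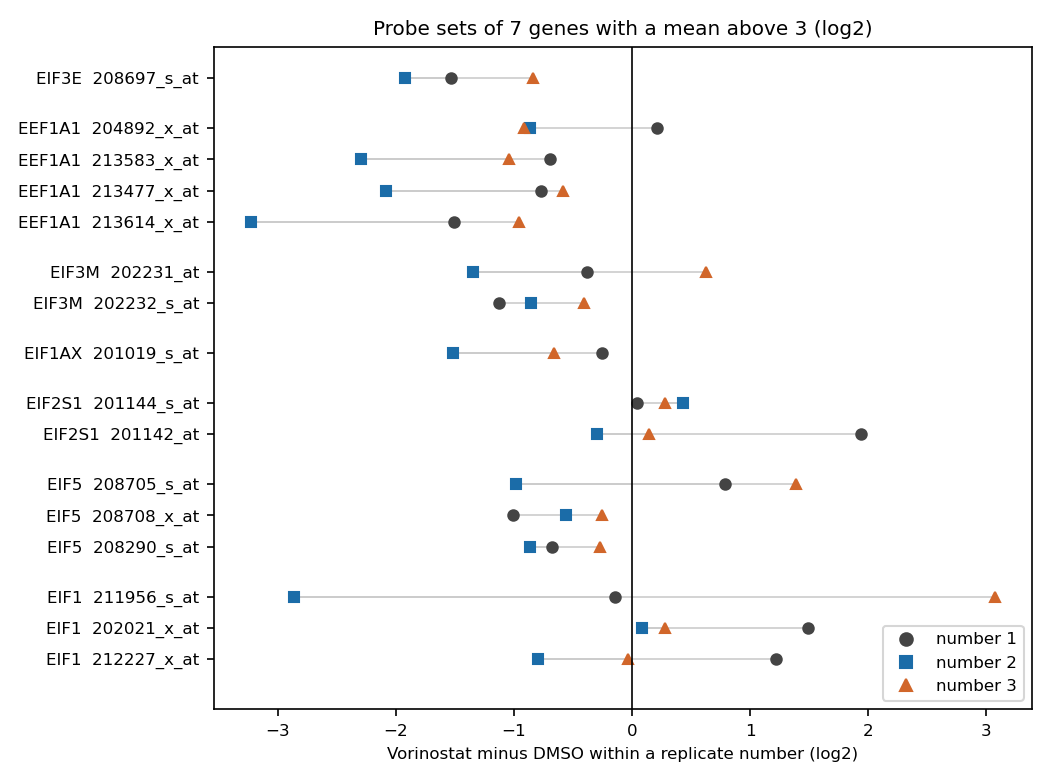
Vorinostat minus DMSO within replicate numbers 1, 2 and 3 (horizontal axis, log2) for each probe set with a mean above 3 in 7 genes. EIF3E and EIF1AX have 1 such probe set each, with all points left of 0, 3 of the 4 of EEF1A1 have the same, and the 3 of EIF5 lie on both sides.

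Of the 5 enzymes that modify elongation factors 3 had a positive and 2 a negative difference, with a median of 0.12 that was -0.09 without both number 1 arrays. EEF1AKMT1, a methyltransferase of eEF1A, had a difference of -0.28 (SE 0.95), with 0.57, -1.46 and 0.05 in the numbers. EEF2KMT, which methylates eEF2, was higher in each number, with 3.46, 1.73 and 1.63 after Vorinostat, against 2.47, 1.64 and 1.36 with DMSO, and only the number 1 arrays gave a step over 0.28. EEF1AKMT2, a methyltransferase of eEF1A, had 3.68, 1.40 and 1.49, against 2.46, 1.58 and 1.53, and without both number 1 arrays its difference was -0.11 in place of 0.33. EEF1AKMT3 stayed between 1.69 and 2.10 on all arrays, near the floor, where the size of a difference is poorly measured. EEF2K, the kinase that stops eEF2, differed by -0.19, -0.36 and 0.17 in the numbers. Its difference of -0.12 had a standard error of 1.27 without the replicate block and 0.14 with it.

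Several probe sets with a mean above 3 read the same gene for 14 genes. The difference between the group means had the same sign in all of them for 10 genes, though not always within each number. Both signs were seen in EIF3B, EIF4B, EIF5 and EIF5B. Over all 52 genes 57 probe sets had a mean above 3, of which 10, in 7 genes, were lower in each number and 3 higher, against 19.4% and 5.26% of the 4920 such probe sets of the table.

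The other genes of the pathway were read from lists of known members. Of 18 genes of translational control, 4 were lower and 2 higher in each number, with a median of -0.23. For these lists too, 13.7% of all genes were lower and 13.0% higher in each number (19.5% and 5.71% of those with a mean above 3). ATF4, the transcription factor of the integrated stress response, was among the lower, with 8.44, 4.13 and 6.18 after Vorinostat, against 8.66, 6.75 and 6.74 with DMSO, and its pairs differed by -0.22, -2.62 and -0.56. MTOR and EIF2AK1, the haem-regulated eIF2 kinase, were lower at an unadjusted p under 0.05 with the block (limma, adjusted p = 0.887). MTOR had 2.36, 1.85 and 1.91, against 2.68, 2.03 and 2.29, all under 3. The eIF4E binding protein genes EIF4EBP1 and EIF4EBP2 differed by -0.70 (SE 0.61) and -0.46 (SE 0.55). All 13 genes of partner proteins had a negative difference, with a median of -0.28, and 8 of the 13 did after quantile normalisation. The share with a negative difference was 53.1% of all genes and 68.8% of those with a mean above 3. For DPH6, PAIP2 and DPH7 the difference was only -0.0019, -0.0024 and -0.00435. PABPC1, the poly(A) binding protein that contacts eIF4G, differed by -0.97, -1.80 and 1.27. Of 5 termination genes 2 were lower in each number, among them GSPT1, which encodes the release factor eRF3, at -0.46 (SE 0.43). The 17 aminoacyl-tRNA synthetase genes had medians of 0.07, -1.66 and 0.28 in numbers 1, 2 and 3, and the 5 mitochondrial factor genes 0.62, -0.20 and 0.09.

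Housekeeping genes shared the low values of number 2. The 11 measured had a median of -0.51, with 0.02, -1.70 and -0.24 in the 3 numbers, and all 11 were lower in number 2 (9 of the 11 after quantile normalisation). Of the genes with a mean above 3, 85.2% were lower in that number. GAPDH had 11.28, 7.11 and 8.22 after Vorinostat, against 11.21, 8.99 and 8.53 with DMSO, and ACTB differed by 0.19, -1.78 and 0.99. The low values of the translation factor genes in number 2 thus came with low values in genes of other functions, on a Vorinostat array where 1840 genes lay above 3 against 2590 on the DMSO array of that number, and the part of this difference between arrays in the result was not tested.

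**Figure D4:**
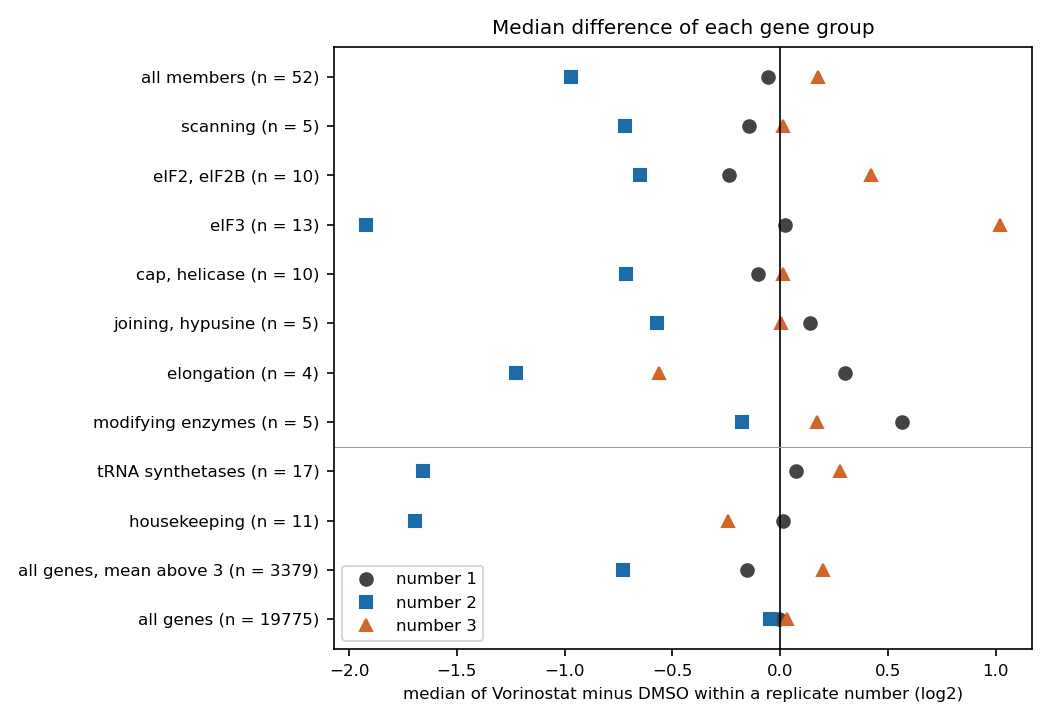
Median Vorinostat minus DMSO within replicate numbers 1, 2 and 3 (horizontal axis, log2) for all 52 genes, for the 7 role groups and, under the line, for aminoacyl-tRNA synthetases, housekeeping genes, genes with a mean above 3 and all genes. The eIF3 group has the widest gap between number 2 (-1.92) and number 3 (1.02), and every group has its number 2 median left of 0.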

How the data were processed

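The authors deposited a single table of log2 values, with probe sets in rows and arrays in columns, whose scale was read from its range. The array files went into Partek Genomics Suite per the paper's methods. MAS5 and RMA are named in the submitters' processing notes, and which step each made is not given in the sources used here. The values were used as deposited, with no further normalisation, and no per-sample column was left unused. After 62 control probe sets were left out, Vorinostat was compared with DMSO by limma 3.58.1 in R 4.3.3 (lmFit and eBayes, no block), and p-values were adjusted by Benjamini-Hochberg over the 54613 others. Of these 41091 name 1 gene in the platform annotation, 1801 several and 11721 none here. The members, lists and the log2 level of 3 were chosen with earlier results of these data known. Values on every array are given for the 6 members with the highest mean, the 6 with the lowest unadjusted p in each direction, EIF3M, the central factor of each step and pairs of paralogs, and other members named were chosen after their values were seen. EIF1AY is counted and its level is not given. The rule also takes in 11 coding genes of RefSeq without a single-gene probe set, which were not analysed here.

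Whether the samples were separate cultures is not stated, so p-values reflect only how these samples vary, perhaps for technical reasons, and their small number limits the precision. An exact permutation test, two-sided, has 0.1 as its smallest p with 3 arrays in each group and was not used. The replicate numbers were taken to pair the samples because the deviations of same-numbered arrays from their group means correlated above 0.1 over probe sets (0.874, 0.599 and 0.672 for numbers 1, 2 and 3). They also correlated at 0.695 between Vorinostat array 2 and DMSO array 3 and at 0.594 between Vorinostat array 3 and DMSO array 2, so the check does not separate numbers 2 and 3. The alternatives were the replicate block, the methods' t-test, a trend of the variance with intensity, quantile normalisation, median centring (both also for the differences within numbers, chosen after seeing the data), other probe set choices, the number 1 arrays left out and each array left out.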

Additional observations from a re-analysis of the deposited data

How the results depend on the processing

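No probe set passed an adjusted p under 0.05 under any alternative run. Of 313 values of single genes under the alternatives, 278 kept their sign and their side of an unadjusted p under 0.05, 27 changed sign, 8 passed that p and 0 lost it. With the replicate block 2 genes were lower at an unadjusted p under 0.05 in place of 0, with the methods' t-test 1, after quantile normalisation 1 (and 1 higher), and without both number 1 arrays 3. Leaving out 1 array gave 0 to 1 lower and 0 to 1 higher: EEF1A1 without Vorinostat replicate 1 (-1.34, limma, adjusted p = 0.932) and EIF4ENIF1 without Vorinostat replicate 2 (0.75, limma, adjusted p = 1). The count of genes lower in every number, 6, was 14 without both number 1 arrays, 11 with the mean of all probe sets, 3 among genes with a mean above 3 (a setting chosen after seeing the data) and 7 to 26 with 1 array left out, where fewer numbers remain by construction. EEF1A1 was 0.15 after quantile normalisation, EEF1AKMT2 was -0.11 without both number 1 arrays, and EIF5 was -0.31 with the mean of all probe sets. Without probe sets that can match other sequences (also chosen after seeing the data) EEF1A1 was 0.090. That value came from a probe set near the floor, with a mean of 1.895. Another EEF1A1 probe set of this kind, with a mean of 1.674, differed by -0.30, so this setting does not decide the direction.

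Leaving out 1 array moved the median of the 52 genes between -1.15 (without Vorinostat replicate 1) and 0.57 (without DMSO replicate 1). The role medians moved between -1.27 and 0.53 for scanning, -0.96 and 0.78 for eIF2 and eIF2B, -1.60 and 0.97 for eIF3, -1.16 and 0.30 for cap binding, -0.82 and 0.43 for subunit joining, -1.55 and 0.033 for elongation factors and -0.41 and 0.64 for the modifying enzymes. EIF3E ran from -2.54 to -0.27 without a change of sign, and single genes that changed sign ran from -2.40 to 0.32 (EEF1D), -2.17 to 0.10 (EIF4G2), -2.05 to 0.53 (EIF3H), -1.82 to 1.09 (EIF3M), -1.76 to 0.49 (EEF2), -1.75 to 1.501 (EIF1), -1.41 to 0.61 (EIF4E), -0.98 to 0.089 (EIF4G1), -0.89 to 0.34 (EEF1A2), -0.84 to 1.45 (EIF2S1), -0.82 to 1.47 (EIF5), -0.82 to 0.10 (EIF5A), -0.41 to 0.73 (EEF1AKMT2), -0.14 to 0.78 (EEF2KMT) and -0.032 to 1.07 (EIF2B2). The high number 1 arrays no longer balance when 1 of them is left out, which moves these values by construction.

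Values under a log2 of 3 lie near the floor of the arrays, and the size of a difference there is poorly measured.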
